A study of Drosophila melanogaster with 2 samples.

Results

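The genes described here are the nuclear genes for proteins of the mitochondrial ribosome, taken as every protein-coding gene of the Ensembl annotation of the fly whose symbol starts with mRpL or mRpS and a number. They numbered 73 of the 13968 protein-coding genes on the 7 chromosome arms, 47 for the large and 26 for the small subunit. The rule used symbols and no measured value, but the family was chosen with earlier results of these data known. Ribosomal proteins of mitochondria with other symbols, such as tko and bonsai, stand in a separate list below. The study mapped where the transcription factor Lim3 was found on chromatin, by ChIP-seq of whole Drosophila melanogaster embryos aged 8 to 24 h. All embryos came from 1 transgenic strain with Lim3 fused to eGFP, precipitated with an antibody against GFP, and the fusion stands for the native protein throughout. There was 1 group with 2 biological replicates, so no condition could be compared with another. The values are the authors' peak lists, and the reads behind them were not counted here, so depth is unknown.

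Lim3 is a LIM-homeodomain protein known for its part in the identity of motor neurons and other neurons. The mitochondrial ribosome translates the few proteins encoded by mitochondrial DNA, which are core subunits of the respiratory chain and of ATP synthase. Its proteins are encoded in the nucleus, made in the cytoplasm and imported. Some descend from proteins of the bacterial ribosome and others were added in mitochondria, and their genes are active in most tissues.

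Of the 73 genes, 8 had a peak of the larger thresholded list, which held 1500 peaks from both libraries, with its summit within 500 bp of a transcript start. Such a peak is called a listed promoter peak. The sequences at 7 of these summits are shown, because 4 of the 8 peaks are among the 19 strongest of the list and because their composition sets them apart from most ranked promoter peaks. That of mRpL41, the strongest, is not printed. Each line gives 50 bases around the summit of 1 peak, read 5′ to 3′ along the strand of the ribosomal protein gene, from release 6 of the fly genome (dm6), in falling order of signal. Capitals mark AATTAA or TTAATT, which is the same word on the other strand, and copies that overlap run together.
mRpL23 (3L:2373575-2373624, minus strand): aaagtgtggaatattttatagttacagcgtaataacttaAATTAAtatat
mRpS10 (3R:15229501-15229550, plus strand): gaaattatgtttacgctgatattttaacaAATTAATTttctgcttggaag
mRpS23 (2L:13835440-13835489, minus strand): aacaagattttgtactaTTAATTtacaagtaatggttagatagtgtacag
mRpS2 (2L:4850529-4850578, minus strand): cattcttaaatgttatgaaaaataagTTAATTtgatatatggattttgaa
mRpL24 (2L:4945468-4945517, minus strand): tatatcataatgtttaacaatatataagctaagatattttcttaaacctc
mRpL20 (3L:13018117-13018166, minus strand): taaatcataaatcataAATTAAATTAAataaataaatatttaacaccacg
mRpS6 (3L:4364425-4364474, plus strand): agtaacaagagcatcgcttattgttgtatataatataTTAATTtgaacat

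All 7 stretches consist mostly of A and T. AATTAA was the single word of its length that all 8 windows of 200 bp around the summits held, and 6 of the 7 stretches printed hold it as well. It was picked after these windows were seen, so its count describes them and supports nothing. The word stood in 270 of the 618 listed promoter peaks of protein-coding genes (43.7%) and in 19.5% of the 16094 ranked promoter peaks. Base composition moved with it. The median share of G and C in the 8 windows was 29.5%, with a range of 26.0 to 36.5%, while it was 34.5% over the 618 listed promoter peaks and 47.5% over all ranked ones. The part of base composition in the word's count was not tested.

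The 8 genes fell into 4 with very strong peaks and 4 with peaks of middling or low signal. The signal is the authors' value for each peak, whose scale the sources used here leave unstated, and is compared only within a list. The irreproducible discovery rate (IDR) is the authors' estimate of how poorly a peak repeats between parts of the data, and the listed peaks all had an IDR of 0.01 or less. Signal from whole embryos cannot tell strong occupancy in a few cells apart from weak occupancy in many.

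In the large subunit, the strongest peak belonged to mRpL41 (FBgn0034001), a protein added in mitochondria with no bacterial counterpart. The peak (2R:15217615-15217887) had a signal of 754.6 from both libraries together, 446.0 in replicate 1 and 305.2 in replicate 2. It was the 4th strongest of the 1500 listed peaks, and it stood at place 7 in the ranking of replicate 1 and place 9 in that of replicate 2. Both replicates thus put it among their first 10 peaks. Its summit lay 122 bp upstream of the single start of mRpL41, in intergenic sequence. The gene on the other side, CG8079, starts 640 bp from the summit.

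The gene mRpL23 (FBgn0035335) encodes the relative of bacterial L23, a protein at the mouth of the tunnel through which the new chain leaves the ribosome. Its peak (3L:2373490-2373732) had a signal of 695.7, with 364.5 in replicate 1 and 320.4 in replicate 2. These values gave it place 8 of the 1500, place 14 in replicate 1 and place 7 in replicate 2. Here the summit lay inside the gene, 78 bp downstream of the nearest of its 3 starts and in its 5′ UTR, which made it the exception among the 8. CG9004 starts on the other strand, 24 bp beyond the outermost start of mRpL23 and 128 bp from the summit.

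The other large subunit genes had weaker and less repeatable peaks. The gene mRpL24 (FBgn0031651), whose bacterial relative starts assembly of the large subunit, had a peak (2L:4945328-4945657) with a signal of 133.6 at place 373. It was 56.4 in replicate 1, where an IDR of 0.0974 kept it off the list, and 73.3 in replicate 2, where it was listed with an IDR of 0.000298. For mRpL20 (FBgn0036335), related to another early assembly protein of bacteria, the replicates stood the other way round. Its peak (3L:13017977-13018306) had a signal of 96.2 at place 664, with 62.4 in replicate 1, where it was listed, and 34.1 in replicate 2, where the IDR was 0.859. Each of these peaks was therefore listed in 1 replicate alone, and in a different one.

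In the small subunit, mRpS10 (FBgn0038307), the relative of bacterial S10 in the head of the subunit, had the strongest peak (3R:15229408-15229664). Its signal was 581.6 from both libraries, 302.0 in replicate 1 and 276.6 in replicate 2, which gave places 11, 17 and 14. The summit lay 139 bp upstream of mRpS10 and 118 bp from the start of Art3, an arginine methyltransferase gene on the other strand, so it was slightly nearer to Art3.

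The peak of mRpS23 (FBgn0260407), a protein of the small subunit without a bacterial counterpart, followed (2L:13835355-13835570). It had a signal of 461.1 at place 19, with 222.3 at place 32 in replicate 1 and 238.9 at place 18 in replicate 2. Its summit was 393 bp from the start of mRpS23, the longest distance among the 8, and 99 bp from that of CenG1A, which encodes a GTPase-activating protein for Arf. Of the 4 strongest peaks this one was thus the least closely tied by position to the ribosomal protein gene.

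The gene mRpS2 (FBgn0031639) encodes the relative of bacterial S2, one of the last proteins to join the small subunit in bacteria. Its peak (2L:4850389-4850718) had a signal of 134.6 at place 358, with 75.3 in replicate 1 and 61.2 in replicate 2, and both replicates listed it. The weakest of the 8 was that of mRpS6 (FBgn0035534, 3L:4364285-4364614), related to S6 of the platform of the bacterial small subunit. It had a signal of 74.7 at place 1018 and an IDR of 0.00767. Replicate 1 had no ranked peak there at all, and in replicate 2 a signal of 46.8 with an IDR of 0.0243 did not make the list. The mRpS6 peak is therefore listed from the libraries together and from neither replicate alone.

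**Figure D1:**
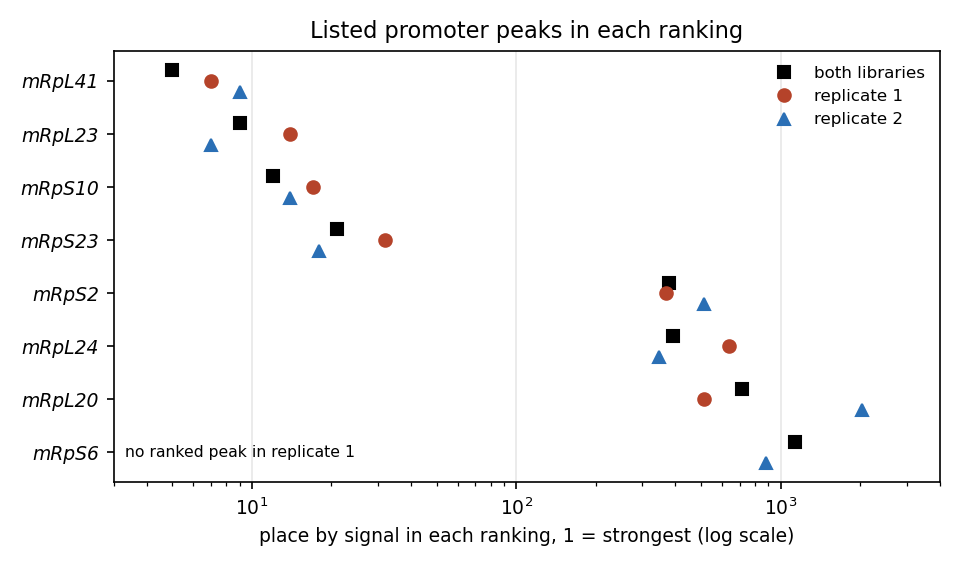
Place by signal of the 8 listed promoter peaks (rows) in the ranking of both libraries together (squares), of replicate 1 (circles) and of replicate 2 (triangles); the horizontal axis is a log scale on which 1 is the strongest peak. The upper 4 genes stand within the first 32 places of every ranking, and the lower 4 at place 347 or later, with mRpS6 missing from replicate 1.

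Over all 8, 5 peaks (62.5%, Wilson 95% interval 30.6 to 86.3) were in the lists of both replicates, against 254 of the 618 listed promoter peaks (41.1%). The interval includes the background share. Where a replicate had a ranked peak there, its summit lay 0 to 59 bp from that of the joint peak. The median signal of the 8 peaks was 298, against 101 over the 618, and it falls in the gap between 461.1 and 134.6. Of the 8, 4 were narrower than the fixed width of 330 bp, against 94 of the 618. These were the 4 strongest, and the other 4 had the fixed width.

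Counted as genes, the 8 of 73 came to 11.0% (Wilson 95% interval 5.66 to 20.2), beside 5.84% of all protein-coding genes. In the conservative list, which the authors made from a separate ranking between the libraries, 7 genes remained (9.59%, 4.72 to 18.5) beside 4.42%, with mRpS6 lost. The list of replicate 1 held 6 (8.22%, 3.82 to 16.8) beside 3.91%, and that of replicate 2 also held 6 beside 3.74%. A peak listed jointly and by each replicate was found at 5 genes, namely mRpL41, mRpL23, mRpS10, mRpS23 and mRpS2 (6.85%, 2.96 to 15.1), beside 2.59%. Each of these 5 shares lay above its background. The 5 counts draw on the same 8 genes and on lists that share data, so they are not independent. The family was also chosen with earlier results of these data known. The interval includes the background in the larger list and in replicate 1 and begins just above it in the other counts, and intervals cover the counting of genes only.

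The count depends on how a peak between 2 genes is assigned. Where each peak went only to the gene with the nearest start, 3 members were left, mRpL41, mRpL23 and mRpS6 (4.11%, 1.41 to 11.4), beside 4.29% of all genes, which is the background level. The other 5 summits lay nearer to the gene across the divide. For mRpS2 that gene is Mon1, part of an activator of Rab7, 87 bp from the summit where mRpS2 starts 135 bp away. For mRpL24 it is betaggt-I, which encodes a subunit of a protein prenyltransferase, at 86 against 132 bp, and for mRpL20 it is Icmt, a methyltransferase gene for prenylated proteins, at 124 against 275 bp. Which gene, if either, a peak acts on was not tested.

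**Figure D2:**
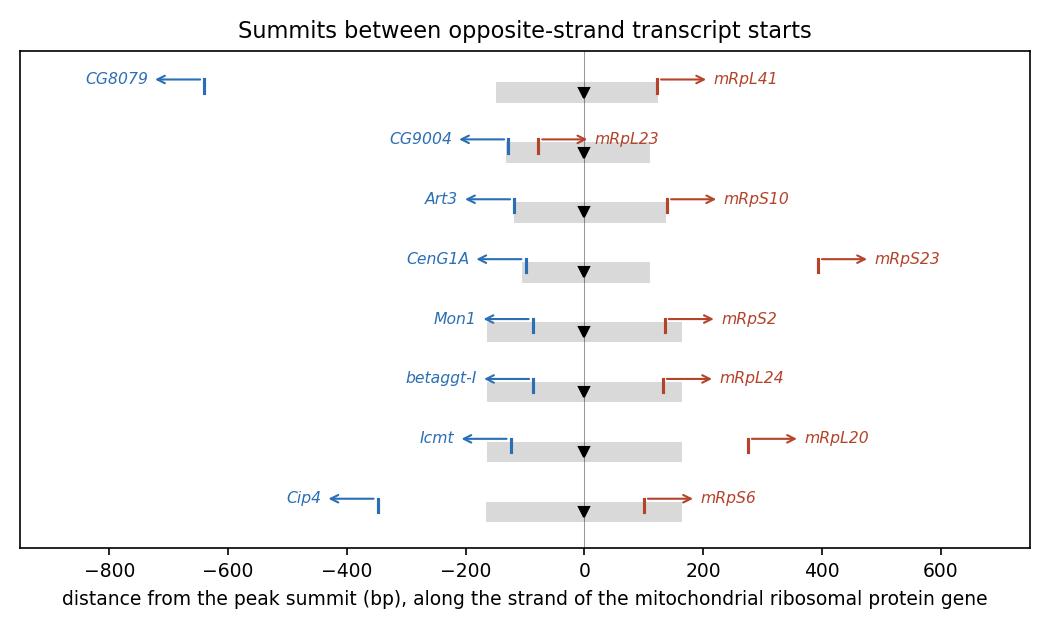
Each row is 1 listed promoter peak (grey bar, its extent) with its summit (triangle) at 0 on the horizontal axis, in bp along the strand of the mitochondrial ribosomal protein gene; red arrows mark the nearest start of that gene and blue arrows the nearest start of the opposite-strand gene. In 7 of 8 rows the summit lies between the starts, and in that of mRpL23 it lies outside them, downstream of the mRpL23 start.

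All 8 genes share their promoter region with a gene that runs the other way. Such an arrangement, with an opposite-strand start of a protein-coding gene within 1000 bp upstream, is called head-to-head here. It held for 58 of the 73 members (79.5%) and for 5052 of the 13968 protein-coding genes (36.2%), and so it was common among members with and without a peak. Among head-to-head genes, 8 of 58 members had a listed promoter peak (13.8%, Wilson 95% interval 7.16 to 24.9), beside 513 of 5052 genes (10.2%), a background that lies inside the interval. Among the rest, 0 of 15 members had one (up to 20.4%), beside 303 of 8916 genes (3.4%). With gaps of at most 500 bp, a limit added after the data were seen, 7 of 53 members had a peak (13.2%) beside 11.7% of all such genes. At 200 bp it was 1 of 22 (4.55%) beside 9.42%. Of the 8 peaks, 7 lay within 500 bp of starts of more than 1 protein-coding gene, against 233 of the 618 listed promoter peaks (37.7%).

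By subunit, 4 of 47 large subunit genes (8.51%, 3.36 to 19.9) and 4 of 26 small subunit genes (15.4%, 6.15 to 33.5) had a listed promoter peak, and the intervals overlap widely. With the nearest start only, these counts were 2 and 1. Genes numbered like bacterial proteins, up to L36 and S21, held 6 of 42 (14.3%, 6.72 to 27.8), and those with higher numbers held 2 of 31 (6.45%, 1.79 to 20.7), namely mRpL41 and mRpS23. The 2 genes with higher numbers were both among the 4 with very strong peaks. By chromosome arm, X had 0 of 11, 2L had 3 of 12, 2R had 1 of 12, 3L had 3 of 17 and 3R had 1 of 21. The share over all protein-coding genes, 5.84%, lies inside the intervals of the large subunit, the higher numbers, X, 2R and 3R. It lies below those of the small subunit, the lower numbers, 2L and 3L. The share of all genes on each arm is not given here, so no difference between arms can be read from these counts.

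The 65 members without a listed promoter peak were followed down the ranking of 142438 peaks from both libraries. Closest to the list was mRpL12, whose bacterial relative forms the stalk that recruits translation factors. Its best peak stood at place 1845 with a signal of 59.1 and an IDR of 0.0137, just above the limit, and 306 bp downstream of the start. In replicate 1 it stood at place 5488 and in replicate 2 at place 3503. Next came mRpS7, at place 2591 with an IDR of 0.0378, whose relative in bacteria binds early in the head of the small subunit. That peak had no counterpart in replicate 1 and stood at place 7870 in replicate 2. They were followed by mRpL43, a protein without a bacterial counterpart, at place 4185 with an IDR of 0.0675. The base of the stalk, mRpL10, stood at place 5822 (IDR 0.443) and mRpL22, of the exit tunnel in bacteria, at place 12300 (IDR 0.48). The step from the listed to the unlisted members was thus gradual, from mRpS6 at place 1132 of this ranking to mRpL12.

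In all, 49 of the 73 members had a ranked promoter peak of any strength (67.1%), beside 73% of all protein-coding genes, and 24 had none. The median place was 41239 (quartiles 12300 and 75794), beside 38754 for all genes, which is 29.0% against 27.2% of the way down the ranking. Without the listed genes, the medians were 56975 for 41 members and 43685 for all other genes. The typical member therefore stood no higher in this pooled ranking than the typical gene. The upper end of the ranking differed. The first 25 places held promoter peaks of 24 genes, of which 4 were members (5.48% of members beside 0.172% of genes). This count includes genes that share 1 peak, and it follows from the 4 strong peaks described above. By the first 500 places it was 8.22% beside 2.56%, by 5000 it was 15.1% beside 10.7%, and by 20000 it was 26.0% beside 23.6%.

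**Figure D3:**
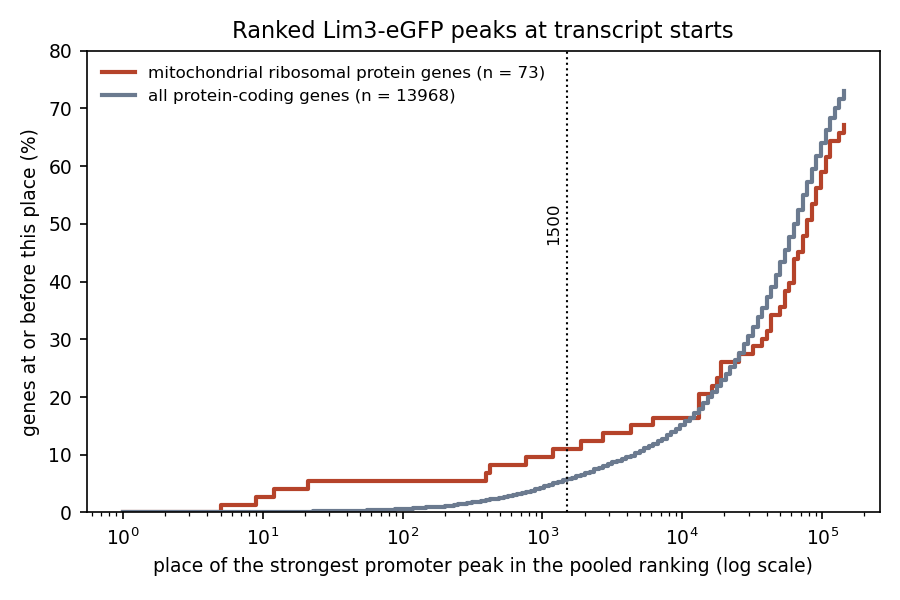
Share of genes (vertical axis, %) whose strongest promoter peak stands at or before a given place of the pooled ranking (horizontal axis, log scale), for the 73 mitochondrial ribosomal protein genes (red) and all 13968 protein-coding genes (grey); the dotted line marks place 1500. The red line leads by a few genes in the first places, stands at 26.0% against 23.6% at place 20000, and ends lower, at 67.1% against 73%.

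The replicates differed in this lower range. In replicate 1, 28 of 73 members had a ranked promoter peak (38.4%) beside 54.3% of all genes, with a median of 41.8% of the way down that ranking beside 32.4%. In replicate 2, 53 members had one (72.6%) beside 73.2%, with a median of 25.6% beside 27.7%. The members thus stood lower than the background in replicate 1 and close to it in replicate 2. The best ranked peaks of the 41 unlisted members had a median G and C share of 50%, beside 29.5% at the 8 listed summits. For the 65 unlisted members the nearest listed summit of any kind lay at least 1423 bp away, with a median of 19811 bp (quartiles 6818 and 42110).

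Many promoters of the members hold the word CAGCTG. It is a form of the E-box, the class of site that basic helix-loop-helix proteins bind, and it reads the same on both strands. It stood in 40 of the 73 promoters (54.8%, Wilson 95% interval 43.4 to 65.7), taken from 250 bases before to 50 after the start, beside 17.9% of all 13968 promoters. The 4 stretches below show it in members with a listed peak. Each gives the copy nearest the start of the gene with 10 bases on either side, from release 6 (dm6), read 5′ to 3′ along the strand of the gene, with the word in capitals.
mRpL23 (3L:2373717-2373742, minus strand): ggttgacaatCAGCTGtttaaaacaa
mRpS2 (2L:4850415-4850440, minus strand): cactacccacCAGCTGtttaccaaaa
mRpL24 (2L:4945326-4945351, minus strand): cagttctcaaCAGCTGattgcaagcc
mRpS6 (3L:4364554-4364579, plus strand): ttccttgcatCAGCTGttaacactat

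In these 4 genes the middle of the word lay 8 bases before the start (mRpS2), 17 after it (mRpS6), 23 after it (mRpL24) and 51 before it (mRpL23). In mRpL41, whose sequence is not printed, it lay 6 bases before the start. The distance for mRpL23 is from the canonical one of its 3 starts, and its word lies at the start of CG9004. Over the 40 members with the word the median position was 7 bases after the start (quartiles −14.75 and 19), whereas over all 2497 promoters with the word it was 43 bases before (quartiles −126 and 1). Around it, the longer form AACAGCTGAT, or ATCAGCTGTT on the other strand, stood in 11 of the 40 (27.5%), beside 12.5% of all promoters with the word. AACAGCTGTT, its own other strand, stood in 7 (17.5%) beside 7.17%. These forms were picked after the promoters were seen. A position near the start was not particular to the members. In the lists described below, the median was 3.5 bases after the start in 14 other mitochondrial translation genes with the word. It was 7 after in 6 mitochondrial DNA and RNA maintenance genes and 8 before in 22 oxidative phosphorylation genes. In 9 cytoplasmic ribosomal protein genes it was 16 before.

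The word stood in 35 of the 65 members without a listed peak (53.8%) and in 5 of the 8 with one (62.5%, 30.6 to 86.3), with overlapping intervals. It stood in 0 of the 8 windows of 200 bp around the summits (up to 32.4%), beside 9.87% of the windows of all listed promoter peaks. In the 5 listed members that held it, it lay 116 to 155 bp from the summit and inside the extent of the peak in all 5. In windows of 500 bp those 5 reappear, beside 34.1% of listed promoter peaks. The share was similar in both subunits, 57.4% in the large and 50% in the small. It was also similar in head-to-head members (53.4%) and in others (60.0%), beside 22.1% and 15.5% over all genes of each arrangement.

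**Figure D4:**
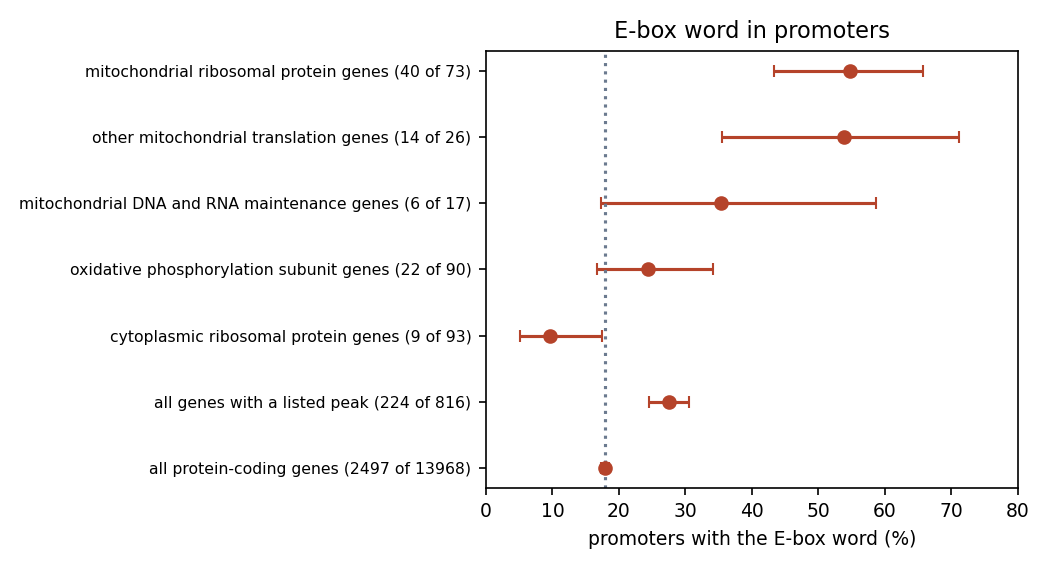
Share of promoters of 300 bases with the E-box word of the text (points, %) by gene list, with Wilson 95% intervals as bars; the dotted line marks the 17.9% of all protein-coding genes. The mitochondrial ribosomal protein genes (54.8%) and the other genes of mitochondrial translation (53.8%) stand highest, and the cytoplasmic ribosomal protein genes (9.68%) lowest.

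The other words of a panel of 9, searched on both strands, were less marked. TATCGATA, the DNA replication-related element (DRE), stood in 15 member promoters (20.5%, 12.9 to 31.2) beside 8.94%, and GTCACACT, the core of the motif of M1BP, in 8 (11.0%) beside 6.44%. CAGCTG, TATCGATA or GTCACACT stood in 53 of the 73 (72.6%) beside 29.5% of all promoters. CGATA, contained in the DRE and bound by BEAF-32, stood in 42 (57.5%) beside 46.9%. GAGAG, the site of GAGA factor, was the reverse, at 12 (16.4%, 9.66 to 26.6) beside 30.2%. TAATTA, a core site of homeodomain proteins that includes those of the LIM class, stood in 15 (20.5%) beside 20%, which is the background level. ACAGTG stood in 13 (17.8%) beside 13.9%, CACGTG in 5 (6.85%) beside 4.25% and CCGGAAG, an ETS core, in 0 beside 1.08%. A word is a run of letters and shows no binding.

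At the 8 summits, TAATTA stood in the windows of mRpS2 and mRpL24 (25%, 7.15 to 59.1), beside 21.8% of all listed and 9.03% of all ranked promoter peaks. None of the 4 strongest peaks held it. ACAGTG stood in those of mRpS23, mRpS2 and mRpS6 (37.5%, 13.7 to 69.4), beside 20.2% and 9.82%. CGATA stood in those of mRpL41 and mRpS10, and GAGAG in that of mRpL23. TATCGATA, GTCACACT, CACGTG and CCGGAAG stood in 0 of the 8. With 8 windows, here of 200 bp, each interval includes the share over all listed promoter peaks. In windows of 500 bp, CACGTG stood in 3 of the 8 (37.5%, 13.7 to 69.4), beside 7.44% of listed promoter peaks. That interval lies above the listed share, while those of the other panel words at 500 bp include theirs.

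The last comparison set the members beside other genes of mitochondria and of ribosomes. Over all protein-coding genes, 5.84% had a listed promoter peak. Of 26 other genes of mitochondrial translation, which are aminoacyl-tRNA synthetases, translation factors, tko and bonsai, 0 had a listed promoter peak (0%, up to 12.9%). Of 17 genes that maintain or express mitochondrial DNA, 3 had one (17.6%, 6.19 to 41.0). Both replicates listed those of PNPase, a mitochondrial RNA exonuclease, with a signal of 536.6 at place 13, and of SLIRP2, an RNA-binding protein gene, with 299.8 at place 64. Of 90 subunits of oxidative phosphorylation, 5 had one (5.56%, 2.4 to 12.4). Both replicates listed those of Cyt-c-d, a cytochrome c gene (179.5), and of ND-ASHI, of complex I (140.5). The Cyt-c-d summit lay 396 bp downstream of the nearest Cyt-c-d start and was nearer to a start of CG31808. The peak of PNPase thus stood between those of mRpS10 and mRpS23, and that of SLIRP2 below the 4 strongest members. The list nearest in function to the ribosomal proteins, that of mitochondrial translation, had none, but its interval includes the 5.84% of all genes. At 1000 bp it had 1 (3.85%), beside 7.13% of all genes. The interval of oxidative phosphorylation also includes 5.84%, and that of the 17 genes begins just above it.

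The cytoplasmic ribosomal protein genes, which build the ribosome of the cytosol, had a higher share than the members in the larger list, with each of their peaks weaker than the 4 strongest of the members. Of 93 genes, 16 had a listed promoter peak (17.2%, 10.9 to 26.1), and 15 of them with the nearest start only. The order of the families did not hold in the list of either replicate, where 7 of the 93 (7.53%) had a listed peak in replicate 1 and 5 (5.38%) in replicate 2, against 8.22% of the members in each. Nor did it hold among the stronger 50% of peaks of the larger list, with 7 of 93 (7.53%) against 9.59%, beside 3.68% of all genes. The order did hold in the conservative list (10.8% against 9.59%) and with the nearest start only (16.1% against 4.11%). It also held at 200 bp (17.2% against 8.22%) and at 1000 bp (18.3% against 11.0%). Over all genes the shares at these distances were 3.71% and 7.13%. The highest signal among the cytoplasmic genes was 160.2, for RpL32 at place 265, and both replicates listed peaks of 2 of the 16, RpL32 and RpL23A (111.0). The members had 5 of 8 in both replicates and 4 peaks with a signal of 461.1 or more. Among these, the summits of mRpS10, mRpS23 and mRpS2 lay nearer to the opposite-strand gene. The differences between the families were not tested.

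**Figure D5:**
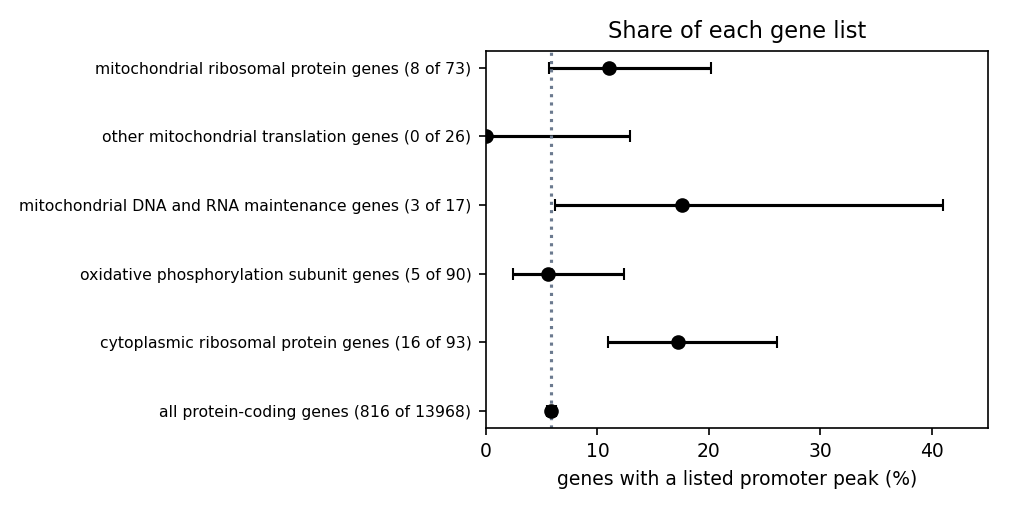
Share of each gene list with a listed promoter peak (points, %) and Wilson 95% intervals (bars); the dotted line marks the 5.84% of all protein-coding genes. In the larger list, plotted here, members stand at 11.0%, between the 5.56% of oxidative phosphorylation genes and the 17.2% of cytoplasmic ribosomal protein genes. The cytoplasmic share is below that of the members in each replicate's list (7.53% and 5.38% against 8.22%). It is above theirs in the conservative list (10.8% against 9.59%) and with the nearest start only (16.1% against 4.11%).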

How the data were processed

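The labels give 2 biological replicates of 1 group, and the report uses the peak lists deposited for each replicate and for both libraries together. Coordinates are those of dm6, per the labels. Aligner, peak caller and versions: not given in the sources used here. A control library was not analysed here. The deposited files hold for each peak a score of at most 1000 scaled from the IDR, a signal that is the authors' own value on a scale not stated, and, in the ranked lists, the authors' −log10 of the IDR. Read counts are unknown, so Wilson 95% intervals cover the counting of genes or peaks only, and genes that share a peak are not independent. In each of the 4 ranked lists, 2 columns of values for parts of the data were not used. The embryo age comes from the source label, since a second age label holds an implausible value.

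Summits were matched to starts of protein-coding transcripts of Ensembl release 115 on the 7 arms, within 500 bp. Peaks of different lists were matched where they overlapped by at least 1 bp. Sequences were read from the RefSeq copy of release 6. Promoters and positions of words take the start of the canonical transcript (for 1 gene without one, the most upstream start). The members, the gene lists and the words were chosen with earlier results of these data known, and no test of chance was run. Named genes are all members with a listed promoter peak, the 5 best-ranked others, and genes of the other lists whose peak was listed jointly and by each replicate. Other names stand where a count is small or a partner gene is described. Of the other lists, mEFG2, gatA, gatB, gatC and Mtpap matched no gene. The matching was tested on simulated peaks. Python 3.11.15, pandas 2.3.3, NumPy 2.4.6, SciPy 1.17.1 and matplotlib 3.10.9 were used.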

Additional observations from a re-analysis of the deposited data

How the results depend on the processing

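Across 64 settings of the counts and shares, 45 kept the value within 1.5 times (counts) or within its interval or spread (shares and places), and 19 moved it. The 8 members (11.0%, beside 5.84% of all genes) became 3 with the nearest start only (4.11% beside 4.29%, large subunit 2, small subunit 1). They became 6 at 200 bp (8.22% beside 3.71%) and stayed 8 at 1000 bp (11.0% beside 7.13%). With the stronger 50% of peaks they were 7 (9.59% beside 3.68%). They were 6 with replicate 1 left out (8.22% beside 3.74%) and 6 with replicate 2 left out (8.22% beside 3.91%). With starts at most 200 bp apart, a limit chosen after the data were seen, 1 head-to-head member had a peak. Other mitochondrial translation genes went from 0 to 1 at 1000 bp. Oxidative phosphorylation genes went from 5 to 3 at 200 bp, 3 in the conservative list, 2 in the stronger 50%, 2 with the nearest start, and 3 to 3 without a replicate. Cytoplasmic ribosomal protein genes went from 16 to 10 in the conservative list, 7 in the stronger 50%, and 5 to 7 without a replicate. The median place of members, 29.0% of the ranking, ranged from 25.6 to 41.8% without a replicate. The share of member promoters with any panel word moved from 93.2% (beside 81.8% of all genes) to 100% (beside 95.1%) in the longest window. That of member summit windows moved from 87.5% to 37.5% at 100 bp and 100% at 500 bp, where fewer or more bases are searched. Over all listed promoter peaks these shares were 74.3%, 39.5% and 97.9%. Of 45 settings of single words, 33 stayed and 12 moved. No paired analysis was possible because there is 1 group and no test between groups. With 8 listed genes and unknown depth, differences between shares of this size were not detectable unless large.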
